A study of Mus musculus with 6 samples.

Results

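Imprinted growth genes were followed in mouse knee chondrocytes between the embryo and the adult. The 10 genes *Igf2*, *H19*, *Dlk1*, *Meg3*, *Mest*, *Peg3*, *Plagl1*, *Cdkn1c*, *Grb10* and *Ndn* were taken by symbol, and 9 of them were found by Ensembl identifier among the 22032 genes of the matrix. *H19* was not analysed here. The choice was made with earlier results on the same 2 stages known, so the stage differences of these 9 genes are given as a description, without a test.

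The samples were 3 embryonic and 3 adult samples of cartilage, placed in the knee by the labels, sorted as cells negative for blood and endothelial lineage antigens and for alkaline phosphatase and positive for BMPR1B, a bone morphogenetic protein receptor. The embryos were at day 16.5 by the study's text, where the labels count 16.5 in weeks. The adults were 2 months old and, by the methods, male B6 mice. The strain and sex of the embryos and the number of animals per sample are not given in the sources used here, so stage, sex and strain cannot be told apart and the spread between samples may be technical in part. No genotype, allele or treatment is named for either group.

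An imprinted gene is transcribed mainly from the copy inherited from 1 parent, and which copy is active was set by DNA methylation in the egg or the sperm. In general the paternally expressed genes of this group (*Igf2*, *Dlk1*, *Mest*, *Peg3*, *Plagl1*, *Ndn*) favour fetal growth and the maternally expressed ones (*H19*, *Meg3*, *Cdkn1c*, *Grb10*) restrain it, though not every gene keeps to this rule. Many are high in fetal mesoderm and are turned down after birth as growth slows. In cartilage *Cdkn1c* is known for its part in the exit of chondrocytes from the cell cycle. The present data measure total transcript and carry no information on the parental copy.

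The stretches of promoter shown here belong to some of the members, and each ends at the base before the first annotated exon base of that start. They are read from RefSeq on GRCm38.p6, on the strand of the gene, and where a gene had several start windows the one with most motif matches was taken. Capitals mark TGCCGC or its reverse complement GCGGCA, the hexamer known to be bound by the imprint-keeping protein ZFP57 when methylated, and GGGGCCCC, a palindromic core of the consensus known for PLAGL1. Both strands were searched, and the 2 motifs did not overlap in these stretches.
*Dlk1*, chr12:109452573-109452822, plus strand: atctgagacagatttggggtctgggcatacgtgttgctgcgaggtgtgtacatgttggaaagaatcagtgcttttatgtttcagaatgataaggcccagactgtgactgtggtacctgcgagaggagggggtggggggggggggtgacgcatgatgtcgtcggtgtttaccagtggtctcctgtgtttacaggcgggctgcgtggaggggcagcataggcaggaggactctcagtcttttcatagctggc
*Igf2*, chr7:142661306-142661521, minus strand: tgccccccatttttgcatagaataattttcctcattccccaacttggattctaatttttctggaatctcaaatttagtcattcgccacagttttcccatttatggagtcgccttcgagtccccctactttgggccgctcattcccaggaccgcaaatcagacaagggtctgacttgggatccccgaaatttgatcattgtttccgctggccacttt
*Mest*, chr6:30737803-30738049, plus strand: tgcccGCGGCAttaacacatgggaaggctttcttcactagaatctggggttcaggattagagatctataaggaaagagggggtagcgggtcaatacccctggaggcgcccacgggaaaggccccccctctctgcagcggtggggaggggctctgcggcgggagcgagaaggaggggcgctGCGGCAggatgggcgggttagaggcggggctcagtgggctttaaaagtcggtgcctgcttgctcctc
*Meg3*, chr12:109540746-109541000, plus strand: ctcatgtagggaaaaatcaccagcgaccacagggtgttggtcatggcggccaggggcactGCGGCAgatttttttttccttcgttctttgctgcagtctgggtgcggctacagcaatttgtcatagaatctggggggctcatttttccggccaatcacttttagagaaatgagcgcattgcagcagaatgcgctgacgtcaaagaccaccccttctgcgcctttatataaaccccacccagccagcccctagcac
*Peg3*, chr7:6730432-6730669, minus strand: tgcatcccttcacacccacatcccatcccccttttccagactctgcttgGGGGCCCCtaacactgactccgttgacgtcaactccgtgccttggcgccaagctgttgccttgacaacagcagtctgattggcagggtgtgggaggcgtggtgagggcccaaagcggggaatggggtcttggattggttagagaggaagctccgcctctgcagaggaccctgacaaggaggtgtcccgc
The *Mest* stretch held the ZFP57 hexamer 2 times and the *Meg3* stretch 1 time. The *Dlk1* and *Igf2* stretches, before the members with the largest stage differences, held neither motif, the hexamer of the *Igf2* window lying in its exon, and the *Peg3* stretch held the PLAGL1 core 1 time. Over whole windows of 300 bases, 8 of the members had 15 start windows between them, of which 6 windows, in *Grb10*, *Igf2*, *Meg3*, *Mest* and *Plagl1*, held the hexamer, 2 of them nearly the same *Mest* window, compared with 11.6% of all 32851 windows. The PLAGL1 core stood in 1 of the 15 windows and in 1.08% of all windows. The hexamer itself holds a CG. The ratio of observed to expected CG was 0.590 to 0.973 in the 6 windows with the hexamer. Its median over all windows was 0.384, so the share over all windows is not matched for CG content. These are letter matches only.

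All 9 members were higher in the embryonic samples, and in each of them the 3 embryonic values lay above the 3 adult values. Their median log2 difference, adult minus embryonic on log2(TPM + 1), was -3.77, where the median of all 13125 tested genes was 0.16. TPM gives the share of a transcript in the total of its sample, corrected for length, so levels can be set side by side between genes. Of all tested genes, 25.9% had every embryonic value above every adult value and 21.4% were lower in the adult samples at a limma adjusted p under 0.05 (45.3% in either direction). All 9 members passed the filter of a mean of 1 TPM and were among the latter, a count that restates how they were chosen and from which nothing is read. Together the 9 genes held 2.45%, 2.29% and 2.43% of all TPM in the embryonic cells and 0.0494%, 0.0508% and 0.0553% in the adult cells.

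**Figure D1:**
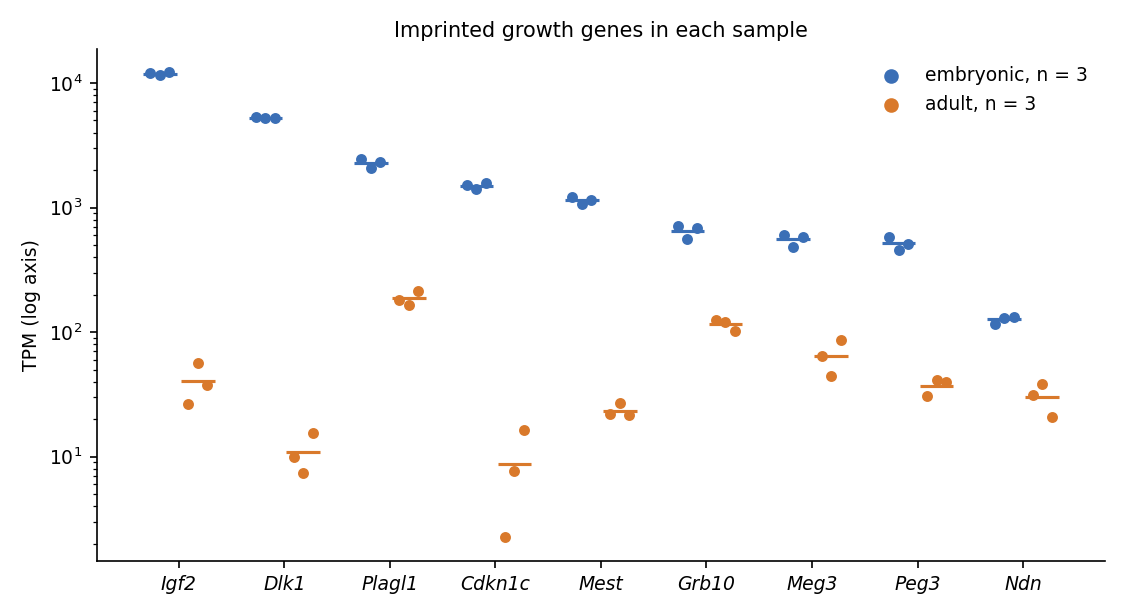
TPM of the 9 imprinted growth genes in each sample, on a log axis; points are samples and horizontal lines the mean of 3 embryonic (blue) or 3 adult (orange) samples. The stages do not overlap in any of the genes, and the order of the genes differs between stages, with *Igf2* highest in the embryonic cells and *Plagl1* in the adult cells.

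Cells other than chondrocytes could carry these transcripts, and marker genes were read beside them. The chondrocyte genes *Col2a1*, *Acan*, *Sox9*, *Col9a1*, *Col11a1*, *Hapln1* and *Comp* were present in every sample. They summed to 21591 to 23322 TPM in the embryonic and 9324 to 12322 TPM in the adult cells. By limma 4 of the 7 were lower in the adult cells and 2 higher (background 21.4% and 23.9%). *Col2a1*, *Col9a1*, *Col11a1* and *Hapln1* fell, *Comp* and *Sox9* rose (log2 differences 1.89 and 0.69) and *Acan* was not called. *Col9a1* went from between 1913 and 1946 TPM to between 27.2 and 64.3 TPM (log2 difference -5.48). Of 7 tendon and fibroblast markers, 5 (*Tnmd*, *Scx*, *Col3a1*, *Col1a1* and *Dpt*) were lower in the adult cells and 0 were higher (background 21.4% and 23.9%), and their sum went from between 10128 and 11768 TPM to between 595 and 1331 TPM. *Scx* and *Tnmd* were listed at 0 in 2 and 1 of the adult samples. The other genes of this list, *Mkx* and *Pdgfra*, were not called (limma adjusted p = 0.712 and 0.243). *Mkx* was at 24.1, 33.3 and 41.5 TPM in the embryonic and 33.7, 44.6 and 14.6 TPM in the adult cells. *Pdgfra* was at 286, 210 and 274 TPM and at 219, 145 and 258 TPM. The part of such cells in the results was not tested, and in bulk samples fewer cells of a type and less RNA per cell cannot be told apart. The muscle regulators *Myod1*, *Myog*, *Myf5* and *Pax7* lay between 0 and 8.57 TPM in the embryonic cells, and all but *Myod1* were listed at 0 in the adult cells. The sum of the 9 muscle markers, 402 to 415 TPM in the embryonic and 252 to 2352 TPM in the adult cells, was mostly *Tnnt1*. The muscle intermediate filament gene *Des* was at 49.3, 50.6 and 46.0 TPM in the embryonic and 1.11, 0.924 and 0.739 TPM in the adult cells and was the 1 muscle marker called of 5 tested (limma adjusted p = 9.8e-06), so it was lower in the adult together with the members. Leukocyte markers summed to 6.06 to 14.7 TPM in the embryonic and 20.4 to 90.7 TPM in the adult cells, endothelial markers to 10.9 to 33.3 and 3.79 to 13.05 TPM, erythroid markers to 7.77 to 257 and 11.9 to 43.6 TPM, and osteoblast markers to 15.7 to 51.8 and 254 to 404 TPM. Of 4 tested erythroid markers 0 were called by limma. Of 4 tested leukocyte markers 2 rose, *Cd68* and *Itgam*, of 3 endothelial markers *Tek* fell from between 9.21 and 19.01 TPM to between 0.121 and 0.889 TPM, and of 5 osteoblast markers *Dmp1* fell while *Ibsp* (0.148 to 29.6 against 235 to 316 TPM) and *Bglap* (0 against 15.8 to 83.9 TPM) rose. Among other marker genes, *Ptprc* did not exceed 2.29 TPM, *Pecam1* 6.87 TPM and *Sp7* 3.26 TPM in any sample, and *Cd3e* was listed at 0 throughout. Other markers of the same lists reached higher values. *Lyz2* was at 30.7 TPM, *Cd68* at 33.3 TPM and *Itgam* at 18.2 TPM in adult replicate 1, and *Emcn* at 10.4 TPM in embryonic replicate 3. *Lyz2* was not called (limma adjusted p = 0.0642).

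*Igf2* encodes the fetal insulin-like growth factor and lies on chromosome 7 of GRCm38 from 142650766 to 142666816, minus strand. It was at 12002, 11536 and 12131 TPM in the embryonic cells, the 2nd highest mean of all genes, and at 26.5, 56.8 and 37.6 TPM in the adult cells, where its mean ranked 4500. The embryonic samples were within a few percent of each other (coefficient of variation 2.63%), while the adult samples spread more widely (37.9%). The log2 difference was -8.24 (standard error 0.233), and the mean was 295-fold higher in the embryonic cells, with 203-fold between the closest and 457-fold between the most distant samples of the 2 stages. *Igf2* alone made up 49.0% to 50.3% of the TPM of the 9 genes in the embryonic cells and 5.37% to 11.2% in the adult cells. Of its 5723 annotated exon bases, 3596 are shared with *Gm49394* on the same strand, a gene without a value in the matrix used here. With *Igf2os*, on the opposite strand, 98 are shared. No strand-specific step is named in the methods for the mouse samples, so reads of these bases cannot be assigned with certainty.

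*Dlk1*, a membrane protein of the Notch ligand type that holds back adipocyte differentiation, lies on chromosome 12 from 109452823 to 109463336. Its level was 5317, 5213 and 5212 TPM in the embryonic cells, the most even of the 9 genes (coefficient of variation 1.15%) and the 7th highest mean of all genes. In the adult samples it was at 10.03, 7.43 and 15.5 TPM, and its mean ranked 8559. The log2 difference of -8.83 (standard error 0.219) was the widest of the group, with embryonic means 477-fold higher (336-fold to 716-fold between single samples).

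*Cdkn1c* and *Grb10* act as brakes on growth. *Cdkn1c* encodes the cyclin-dependent kinase inhibitor p57 (chromosome 7, 143458339 to 143461050, minus strand) and was at 1507, 1405 and 1560 TPM in the embryonic cells and at 2.25, 7.65 and 16.4 TPM in the adult cells. The adult values differ by several-fold among themselves, the widest spread of the group (coefficient of variation 81.5%). The log2 difference was -7.56 (standard error 0.490), and single samples differed by 85.6-fold to 694-fold. Without adult replicate 1, the lowest, the log2 difference was -6.92. *Gm44732*, on the opposite strand and without a value in the matrix used here, covers 625 of the 2039 exon bases of *Cdkn1c*. *Grb10* encodes an adaptor that dampens signaling from the insulin and IGF1 receptors (chromosome 11, 11930508 to 12038683, minus strand). It was at 707, 560 and 691 TPM and at 126, 120 and 102 TPM, a log2 difference of -2.48 (standard error 0.141) and 5.62-fold between the means. *Cdkn1c* was thus the higher of the pair in every embryonic sample and *Grb10* in every adult sample.

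*Plagl1* and *Peg3* encode zinc finger transcription factors, and PLAGL1 (ZAC1) is known to regulate other imprinted genes. *Plagl1*, on chromosome 10 from 13060504 to 13131694, was at 2432, 2086 and 2310 TPM in the embryonic cells and at 182, 166 and 213 TPM in the adult cells. It had the highest adult level of the group and accounted for 32.6% to 38.6% of the adult TPM of the 9 genes, against 9.10% to 9.93% in the embryonic cells. Its log2 difference was -3.60 (standard error 0.132). *Peg3*, on chromosome 7 from 6703892 to 6730431, minus strand, was at 575, 459 and 509 TPM and at 30.4, 41.1 and 39.5 TPM, with a log2 difference of -3.77 (standard error 0.159). In fold, 13.9 for *Peg3* and 12.2 for *Plagl1*, the difference between these genes was smaller than the range over single samples of either (11.2 to 18.9 and 9.78 to 14.7).

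*Mest*, which encodes an alpha/beta hydrolase fold protein of the endoplasmic reticulum, lies on chromosome 6 from 30723547 to 30748465. It was at 1218, 1058 and 1143 TPM in the embryonic cells and at 21.8, 26.8 and 21.7 TPM in the adult cells, the most even adult values after *Grb10* (coefficient of variation 12.4%). The log2 difference was -5.55 (standard error 0.136), 48.6-fold between the means. It shares 912 of 3945 exon bases with *Copg2* on the opposite strand, which was at 28.2, 16.6 and 21.3 TPM and at 27.7, 18.98 and 9.48 TPM (log2 difference -0.31, limma adjusted p = 0.538).

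*Ndn* encodes necdin, a MAGE family protein associated with cell cycle exit, and lies on chromosome 7 from 62346569 to 62350262. It was at 117, 130 and 133 TPM in the embryonic cells, the lowest embryonic level of the group, and at 31.5, 38.4 and 20.7 TPM in the adult cells (log2 difference -2.07, standard error 0.225, 4.198-fold). *Meg3*, a long non-coding RNA, lies on chromosome 12 from 109541001 to 109571726. It was at 604, 483 and 584 TPM and at 63.8, 44.8 and 85.9 TPM (log2 difference -3.13, standard error 0.222, 8.60-fold).

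Ordered by mean level, the embryonic samples ran *Igf2*, *Dlk1*, *Plagl1*, *Cdkn1c*, *Mest*, *Grb10*, *Meg3*, *Peg3* and *Ndn*. Neighbours in this order did not overlap over the 3 samples, except *Grb10* with *Meg3* and *Meg3* with *Peg3*. In the adult samples the order was *Plagl1*, *Grb10*, *Meg3*, *Igf2*, *Peg3*, *Ndn*, *Mest*, *Dlk1* and *Cdkn1c*. There *Plagl1*, *Grb10* and *Meg3* were separate from one another, whereas *Meg3* to *Mest* formed a run in which each neighbour overlapped the next, as did *Dlk1* and *Cdkn1c*. *Grb10* was thus 6th of 9 in the embryo and 2nd in the adult.

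No adult sample was low throughout. Each of the 3 adult samples was the lowest for 3 of the 9 members, *Igf2*, *Cdkn1c* and *Peg3* in adult replicate 1, *Dlk1*, *Meg3* and *Plagl1* in adult replicate 2, and *Mest*, *Grb10* and *Ndn* in adult replicate 3. In the embryo, replicate 2 was the lowest for 7 of the 9 members, and for 40.9% of all tested genes. The median SD of log2(TPM + 1) over the members was 0.10 in the embryonic and 0.44 in the adult cells, compared with 0.26 and 0.35 over all tested genes. The comparison was not matched by level. By mean TPM the members ranked 2 to 1545 in the embryonic and 911 to 9148 in the adult cells.

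The receptors of IGF2 were examined next. IGF2 signals through the IGF1 receptor and the insulin receptor, and IGF2R, itself the product of an imprinted gene, binds it and carries it to lysosomes. Of 7 genes in the list (*Igf1r*, *Igf2r*, *Insr*, *Irs1*, *Irs2*, *Pik3r1* and *Grb14*) 2 fell in the adult cells and 0 rose, at a limma adjusted p under 0.05, where the background is 21.4% lower and 23.9% higher. At an unadjusted limma p under 0.05 the count that rose was also 0, the closest being *Grb14*, a relative of *Grb10*, at a log2 difference of 1.01 (unadjusted p = 0.0707 and adjusted p = 0.124). *Igf2r* fell from 383, 308 and 336 TPM to 66.0, 78.0 and 55.1 TPM (log2 difference -2.36, standard error 0.162, limma adjusted p = 1.3e-05). *Irs2*, an adaptor of the insulin receptor, fell from 70.8, 58.3 and 82.1 TPM to 34.6, 48.9 and 41.9 TPM (log2 difference -0.74, limma adjusted p = 0.0154). That call was lost without embryonic replicate 1 (adjusted p = 0.0537) or 3 (adjusted p = 0.0668), and the alternatives spanned 0.00551 to 0.0668. *Igf1r* was at 74.1, 69.2 and 71.7 TPM and at 79.3, 74.6 and 52.5 TPM, and its log2 difference of -0.08 (standard error 0.184) was within the spread between samples (limma adjusted p = 0.742). The ratio of *Igf2* to *Igf2r* transcripts was 31.3, 37.5 and 36.2 in the embryonic cells and 0.402, 0.727 and 0.682 in the adult cells. The transcript of the ligand thus exceeded that of its clearance receptor in every embryonic sample and lay under it in every adult sample.

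**Figure D2:**
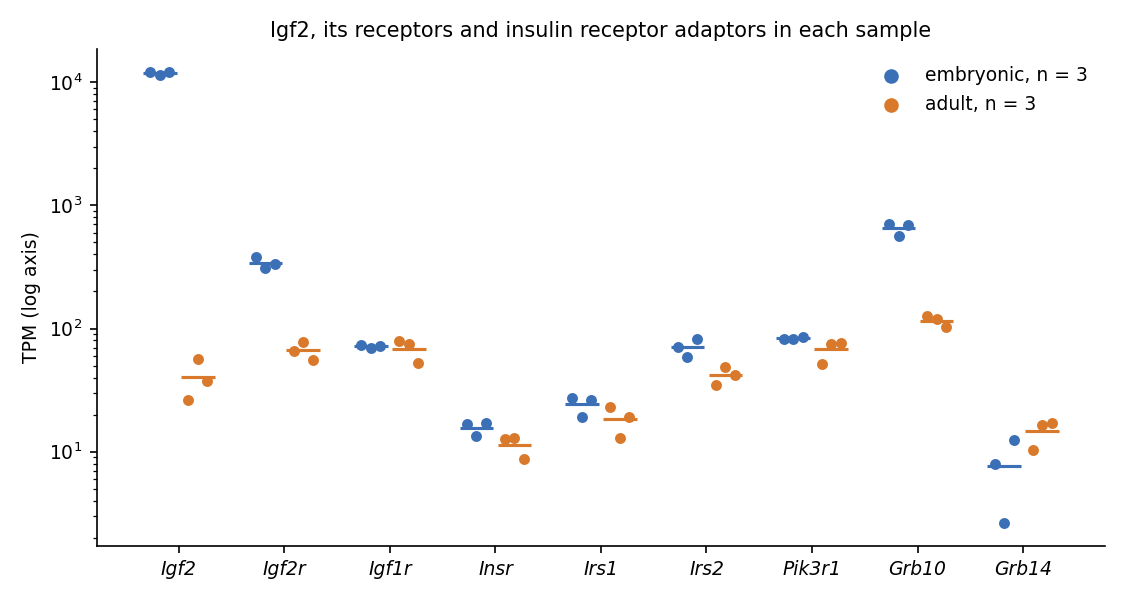
TPM of *Igf2*, its receptors and adaptors of the insulin receptor in each sample, on a log axis; points are samples and lines the mean of 3. *Igf2*, *Igf2r*, *Grb10*, *Insr*, *Irs2* and *Pik3r1* are separated by stage, though *Insr* and *Pik3r1* were not called (limma adjusted p = 0.241 and 0.186). The values of *Irs1* and *Grb14* overlap between the stages, as do those of *Igf1r*, near 70 TPM.

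To see whether genes at the same loci moved with the members, 63 other imprinted genes were described, 32 from the domains of the members and 31 from other domains. Of these, 61 were measured, 51 passed the filter, and *Ins2*, *Ascl2* and *Th* were listed at 0 in every sample. In the adult samples 25 of the 51 fell (49.0%, background 21.4%) and 6 rose (11.8%, background 23.9%), with a median log2 difference of -0.51. The remaining 20 did not pass the threshold. *Igf2r* is among the 25 and is counted in the receptor list above as well. Whether each of these genes is imprinted in these cells was not measured. For the domain neighbours the counts were 12 lower and 1 higher of 24, with a median of -0.41, and for the other domains 13 lower and 5 higher of 27, with a median of -0.52.

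**Figure D3:**
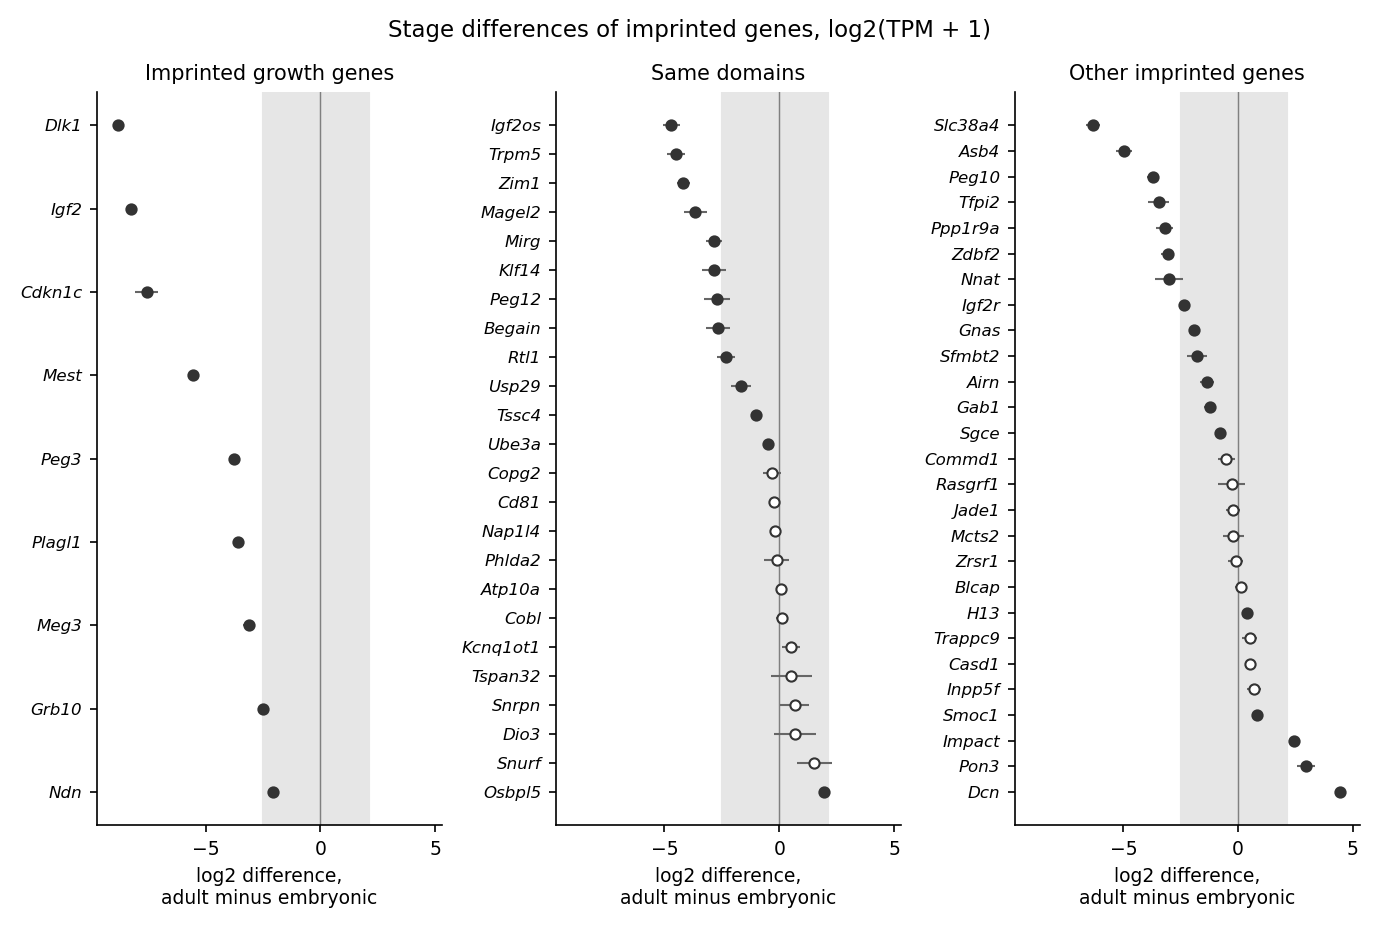
Log2 difference (adult minus embryonic, log2(TPM + 1)) with its standard error for the 9 imprinted growth genes, the 24 tested genes of the same domains and the 27 tested genes of other imprinted domains. Filled points had a limma adjusted p under 0.05 and open points did not, the members having been chosen on this contrast; the grey band holds the middle of all tested genes, from the 5th (-2.51) to the 95th (2.13) percentile, and 7 of the 9 members lie left of its lower edge.

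In the *Dlk1* domain on chromosome 12 the tested genes other than *Dio3* were lower, by unequal amounts. *Dlk1* differed by -8.83, whereas *Meg3*, whose start lies 88.2 kb downstream, differed by -3.13. The ratio of *Dlk1* to *Meg3* was 8.80, 10.8 and 8.92 in the embryonic cells and 0.157, 0.166 and 0.181 in the adult cells, so that *Meg3* was the higher of the pair in every adult sample. *Mirg*, a transcript that carries microRNAs, fell from 110, 109 and 125 TPM to 9.14, 12.7 and 28.1 TPM (log2 difference -2.86, limma adjusted p = 2.8e-04). *Rtl1*, a retrotransposon-derived gene needed in the placenta, fell from 11.7, 13.6 and 11.4 TPM to 1.26, 1.15 and 2.70 TPM (log2 difference -2.33, limma adjusted p = 0.0016), and *Begain* by 2.67 (limma adjusted p = 0.00391). *Dio3*, which encodes the deiodinase that inactivates thyroid hormone, was at 1.89, 0.138 and 2.53 TPM and at 13.3, 0 and 2.48 TPM and was not called (limma adjusted p = 0.558).

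The distal part of chromosome 7 holds *Igf2* and, 794 kb from it, *Cdkn1c*. Of the other tested genes of the list there, *Igf2os*, *Trpm5* and *Tssc4* fell, *Osbpl5* rose and the others did not pass the threshold. *Kcnq1ot1*, the long non-coding RNA known to silence *Cdkn1c* on the paternal chromosome, was at 4.97, 2.74 and 3.99 TPM in the embryonic and 5.15, 5.09 and 7.90 TPM in the adult cells (log2 difference 0.53, limma adjusted p = 0.303). *Phlda2*, a placental growth suppressor, *Nap1l4* and *Cd81* had log2 differences between -0.24 and -0.12 with limma adjusted p of 0.871, 0.474 and 0.190 in that order. *Osbpl5*, a lipid transfer protein gene, rose from 30.4, 31.4 and 31.0 TPM to 142, 129 and 99.3 TPM (log2 difference 1.94, standard error 0.174, limma adjusted p = 5.5e-05), the 1 of the 24 tested domain neighbours that rose. *Tssc4* fell by 1.01 (limma adjusted p = 0.00808). *Trpm5*, an ion channel gene that overlaps *Tssc4* on the opposite strand, was at 19.2, 17.1 and 29.9 TPM and was listed at 0 in every adult sample (limma adjusted p = 5.7e-05). *Igf2os*, antisense to *Igf2*, was at 26.5, 21.8 and 26.7 TPM and was listed at 0 in every adult sample (limma adjusted p = 2.7e-05). The 2 genes share 98 exon bases, and *Igf2* stood at 452, 528 and 455 times the level of *Igf2os* in the embryonic samples. Whether reads of *Igf2* entered the value of *Igf2os* was not tested.

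**Figure D4:**
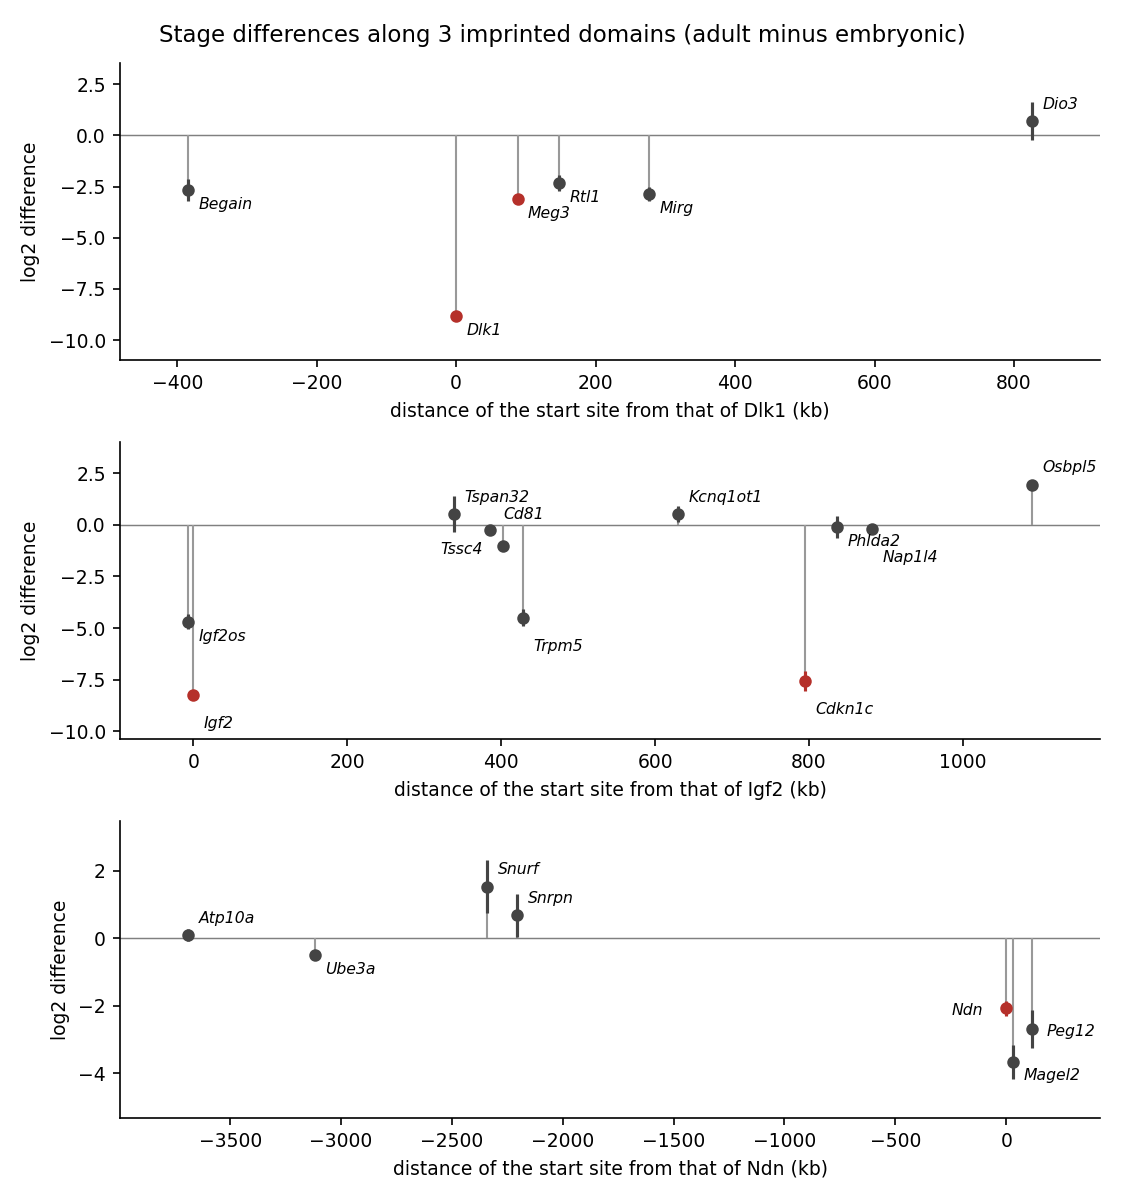
Log2 difference (adult minus embryonic) with its standard error for each tested gene, against the distance in kb of its start site from that of *Dlk1* (top), *Igf2* (middle) and *Ndn* (bottom), with members in red and other imprinted genes in grey. With the pseudocount of 1 used here, *Dlk1* (-8.83), *Igf2* (-8.24) and *Cdkn1c* (-7.56) lie below all the other genes of their panels, which run from -4.70 (*Igf2os*) to 1.94 (*Osbpl5*). *Igf2os* and *Trpm5* were listed at 0 in every adult sample, so their differences depend on the pseudocount. With a pseudocount of 0.1 they were at -7.97 and -7.75, where *Cdkn1c* was at -7.80, *Igf2* at -8.27 and *Dlk1* at -8.95.

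Around *Ndn*, 2 of the 3 nearest genes of the list fell, and *Mkrn3*, at no more than 1.72 TPM in any sample, was not tested. *Magel2*, a MAGE family neighbour, was at 13.2, 5.95 and 19.1 TPM and was listed at 0 in every adult sample (limma adjusted p = 5.4e-04), and *Peg12* fell from 10.8, 16.3 and 17.6 TPM to 0.0640, 1.79 and 3.68 TPM (log2 difference -2.70, limma adjusted p = 0.00478). At the other end, *Ube3a*, a ubiquitin ligase gene, fell by 0.51 (limma adjusted p = 0.0197) and *Atp10a* differed by 0.09 (limma adjusted p = 0.705). *Snrpn* and *Snurf* were at most 8.35 TPM in any sample and were not called (limma adjusted p = 0.413 and 0.138). Next to *Peg3*, *Zim1* fell from 70.9, 57.0 and 62.6 TPM to 3.33, 2.18 and 2.25 TPM (log2 difference -4.18, limma adjusted p = 1.0e-05), and *Usp29* fell by 1.65 (limma adjusted p = 0.0136). *Klf14*, beyond *Copg2* from *Mest*, was at 9.33, 5.05 and 12.3 TPM and at 0, 1.26 and 0 TPM (limma adjusted p = 0.00273). *Cobl*, near *Grb10*, differed by 0.13 (limma adjusted p = 0.717).

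Among imprinted genes of other domains, *Slc38a4*, an amino acid transporter gene of the growing fetus and placenta, was at 89.4, 78.6 and 86.6 TPM in the embryonic cells and at 0.0854, 0.133 and 0 TPM in the adult cells (limma adjusted p = 1.7e-06). *Asb4* fell from 120, 97.0 and 172 TPM to 3.49, 1.57 and 4.86 TPM (log2 difference -4.96, limma adjusted p = 1.6e-05). *Peg10*, a retrotransposon-derived gene, fell by 3.71 and *Zdbf2* by 3.08 on the log2 scale. *Tfpi2* and *Ppp1r9a*, with adult values of at most 1.27 TPM, had log2 differences of -3.47 and -3.19 with a pseudocount of 1 and of -5.05 and -4.19 with a pseudocount of 0.1. These genes were low in every adult sample, with *Zdbf2* highest at 16.2 TPM.

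In the opposite direction, *Dcn*, which encodes the collagen-binding proteoglycan decorin and is imprinted in the mouse placenta, rose from 217, 241 and 326 TPM to 6348, 5026 and 5549 TPM (log2 difference 4.44, standard error 0.171, limma adjusted p = 5.8e-07). *Pon3*, a lactonase gene, rose by 2.95 (limma adjusted p = 4.6e-04) and *Impact*, a regulator of translation, by 2.45 (limma adjusted p = 6.7e-05). *Smoc1* rose by 0.82 (limma adjusted p = 0.00723) and *H13* by 0.40 (limma adjusted p = 0.024). The call of *H13* was lost under 6 of 14 alternatives, with an adjusted p between 0.0103 and 0.131.

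The factors that set and keep imprints were read last. Of 12 genes, 10 passed the filter, and 7 fell and 2 rose in the adult cells (background 21.4% and 23.9%). *Uhrf1*, which guides maintenance methylation and is expressed in dividing cells, fell from 202, 143 and 182 TPM to 4.08, 16.5 and 11.4 TPM (log2 difference -4.08, limma adjusted p = 9.4e-05). The maintenance methyltransferase gene *Dnmt1* fell by 1.56 (limma adjusted p = 1.9e-04) and the *de novo* methyltransferase gene *Dnmt3a* by 1.39 (limma adjusted p = 2.7e-04). *Zfp57*, whose protein binds the hexamer marked in the *Mest* and *Meg3* sequences, fell from 37.4, 53.5 and 39.5 TPM to 20.9, 12.2 and 10.2 TPM (log2 difference -1.57, limma adjusted p = 0.00297). *Arid4b* fell by 1.19 (limma adjusted p = 6.3e-04). *Arid4a* fell by 0.66 (limma adjusted p = 0.0247), a call that 4 of the 6 fits leaving out a sample lost, those without embryonic replicates 1 and 3 and adult replicates 2 and 3, the highest adjusted p being 0.0923. *Trim28* fell by 0.55 (limma adjusted p = 0.0211). *Zfp445* had a log2 difference of 0.48 and was not called (limma adjusted p = 0.0758). *Ctcf*, the insulator protein gene, rose by 0.63 (limma adjusted p = 0.0115). *Dnmt3l* was listed at 0 in every embryonic sample and at 0.92, 11.4 and 10.2 TPM in the adult cells (limma adjusted p = 0.0159), and without adult replicate 2 the adjusted p was 0.0607 (range 0.00114 to 0.0607 over the alternatives). *Dppa3*, an oocyte factor, was listed at 0 in every sample.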

How the data were processed

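RNA-seq was measured in 3 embryonic and 3 adult mouse samples. The authors mapped reads to GRCm38 with RefSeq annotations, estimated transcript abundance by RSEM, and the deposited values are log2(TPM + 1). The RSEM version is not given in the sources used here. TPM added up to 1000000 in each library, a scale that carries no depth (the study's read totals were not used here), and precision rests on the spread between 3 samples.

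Symbols and positions came from GENCODE M21 (GRCm38), with a symbol for 21902 of 22032 identifiers. Stages were compared with limma 3.58.1 in R 4.3.3 (lmFit, eBayes with trend) on the deposited log2 values (pseudocount 1) where a gene averaged 1 TPM or more, with Benjamini-Hochberg adjustment over 13125 genes. The EBSeq of the methods needs counts and was not used here. Python 3.11.15, pandas 2.3.3 and matplotlib 3.10.9 served for the rest.

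The members and lists were chosen with earlier results of these data known. Named genes are the 9 members, up to 6 genes per list and direction with the largest difference among those called, and the 3 genes closest in profile to *Igf2* and to *Dlk1*. Other genes of the lists were named after their values were seen. The lists were domain neighbours, other imprinted genes, IGF2 reception, imprint control, and markers of chondrocyte, muscle, erythroid, leukocyte, endothelial, osteoblast and tendon or fibroblast cells. Same-numbered samples did not deviate together (correlations of -0.01, -0.02 and -0.02 across genes), so numbers do not pair them. Alternatives were a pseudocount of 0.1, no filter, a mean of at least 5 TPM, 3 other scalings, eBayes without trend, the replicate number as a block and each sample left out in turn.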

Additional observations from a re-analysis of the deposited data

How the results depend on the processing

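The members stayed lower in the adult cells under all 14 alternatives, with log2 differences between -9.35 and -1.83. Of 126 such values, 123 moved by less than 1 SD (pooled over both stages of the gene), and those of *Dlk1* and *Igf2* under quantile normalization (-9.35 and -8.65) and of *Mest* under median-of-ratios scaling (-5.69) moved more. *Cdkn1c*, whose SD is wide, ran from -8.14 without adult replicate 3 to -6.92 without adult replicate 1. Their median lay between -3.85 and -3.63 with a sample left out. Median-of-ratios scaling shifted the median of all tested genes from 0.16 to 0.03. The counts of other imprinted genes stayed within 23 to 26 lower and 5 to 7 higher with a sample left out, and those of all genes within 2157 to 2781 lower and 2447 to 2836 higher. Over all genes the balance turned with the scaling, from 2809 lower and 3140 higher to 3238 and 2613 with median-of-ratios scaling and 2830 and 2792 with quantile normalization, and it was 2526 and 3509 when rescaled without the 20 highest genes. Of the IGF2 reception and imprint control genes together (9 lower and 2 higher), 6 to 8 were lower and 1 to 3 higher with a sample left out. The count higher was 1 without adult replicate 2, and 1 with a mean of at least 5 TPM, where fewer genes were tested. With the replicate block, 25 other imprinted genes were lower and 5 higher, 9 and 2 genes of the receptor and control lists, and 2559 and 2871 of all genes. *H13* then had an adjusted p of 0.0557, and the block changed no other call among the named genes. Of 390 values for named genes outside the members, 377 kept their call, 13 lost it and 0 reversed. TPM sets no limit of detection, so a value of 0 need not mean an absent transcript.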

Other observations

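Genes near the members but in none of the imprinted lists were read for their position. Within 500 kb of a member 77 such genes were measured and 43 passed the filter, with 7 (16.3%) lower in the adult and 10 (23.3%) higher at a limma adjusted p under 0.05, against 21.4% and 23.9% of all tested genes. Their median log2 difference was 0.17, beside 0.16 over all genes. The window was chosen after the data were seen. The widest differences among them on log2(TPM + 1), also picked by their values, were those of *Lncpint* and *2210408F21Rik*, non-coding genes in the *Mest* region, and *Tnni2*, a fast muscle troponin gene in the *Igf2* region. *Lncpint* was at 0.864, 0 and 5.26 TPM in the embryonic and 86.1, 185 and 93.3 TPM in the adult cells, and *2210408F21Rik* at 0 in the former and 42.5, 58.7 and 50.02 TPM in the latter. *Tnni2* was at 31.2, 65.2 and 23.9 TPM and at 0, 0.761 and 0.270 TPM. *Ctsd*, encoding cathepsin D, rose by 1.60 in the *Igf2* region, and *Tnfrsf22* and *Tnfrsf23*, decoy receptor genes beside *Cdkn1c*, rose by 1.38 and 1.56.

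By the distance of gene-centred log2(TPM + 1) over the 6 samples, the genes closest in profile to *Dlk1* were *Mfap2* (0.657), a microfibril gene, and the histone genes *Hist1h2ap* (1.02) and *Hist1h2af* (1.06). Those closest to *Igf2* were the histone gene *Hist1h2ah* (1.05), the fibrillin gene *Fbn2* (1.24) and *Agtr2* (1.29), the angiotensin type 2 receptor gene. *Fbn2* was at 210, 148 and 178 TPM in the embryonic cells and at 0, 0.0165 and 0 TPM in the adult cells, and *Agtr2* at 150, 165 and 195 TPM and at 0 in every adult sample. All of these neighbours were at or near 0 in the adult cells, the highest value being 1.66 TPM (*Mfap2*). *Igf2* was at 26.5 to 56.8 TPM there and *Dlk1* at 7.43 to 15.5 TPM. The distances therefore depend on the pseudocount of 1 and do not mean equal fold differences. Histone genes have near-identical copies, so each of their values is uncertain.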
